A study of Mus musculus with 8 samples.

Results

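Colony-stimulating factors are secreted proteins that keep blood and tissue myeloid cells alive and make them divide and mature. The genes described here are 8 of the 21848 genes counted in single cells of the injured mouse cortex. They were taken by symbol, and each symbol matched 1 row of the count tables. The ligands are Csf1 (M-CSF), Il34 (interleukin-34), Csf2 (GM-CSF) and Csf3 (G-CSF), and the receptors are Csf1r, Csf2ra, Csf2rb and Csf3r.

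CSF1 and IL-34 are unrelated in sequence, but both bind CSF1R, a receptor tyrosine kinase that microglia and most tissue macrophages need for survival. GM-CSF binds CSF2RA, its specific alpha chain, which signals through CSF2RB, the beta chain shared with the receptors for interleukin-3 and interleukin-5. G-CSF binds CSF3R, which drives the production and release of neutrophils. In the healthy brain, IL-34 is known chiefly from neurons and CSF1 from glia.

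Adult mice had a photothrombotic stroke, in which light and the dye Rose Bengal clot the vessels of a small area of cortex. The lesion and the spared cortex around it were dissected 6 days later without the meninges, dissociated, freed of myelin and sequenced with no enrichment for any cell type. Each of 4 mice received 2.4 U per day of ancrod, a snake venom enzyme that depletes fibrinogen from blood, and each of 4 control mice received saline. Both were given by subcutaneous pumps implanted 2 days before the stroke. The labels give all 8 animals as female Bl/J6 mice. Replicates 1 to 3 of each group were injured and sequenced in batch 1 and replicate 4 of each in batch 2. There was 1 library per mouse, so the mouse was the unit of every comparison.

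The libraries held 97861434 to 122758649 UMIs (unique molecular identifiers, each counting 1 captured RNA molecule) in control mice and 126682918 to 142139441 in ancrod mice, with no overlap. Of 46216 droplets with at least 2000 UMIs and less than 20% mitochondrial UMIs, 2144 were scored as doublets and removed. The other 44072 cells fell into 57 clusters, made without the 8 genes, and most clusters were named from marker genes. Each class name used here, such as microglia or pericytes, stands for cells that resemble that type by those markers. Any pair of libraries shared 3 to 15 cell barcodes. Free RNA was estimated from the lowest levels among genes that a class should lack, and came to 0.713 to 1.31% of the UMIs of a cell. Other such genes lay higher, so this estimate may not cover all RNA from other cells. Levels are given as CPM, the UMIs of a gene scaled to the total UMIs of all cells of a class in a mouse, with the SD over mice. Intronic reads were counted too and capture differs between genes, so levels were compared between classes within a gene and not between genes.

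Among the ligands, Csf1 was widely found, Il34 was found mostly in vessel wall cells, and Csf2 and Csf3 were close to the limit of detection. Csf1 had 135345 UMIs in 18671 cells (42.4%), Il34 had 12035 UMIs in 3028 cells (6.87%), Csf3 had 641 UMIs in 203 cells (0.461%) and Csf2 had 57 UMIs in 25 cells (0.0567%). All receptors were common. Csf1r was found in 61.2% of cells, Csf3r in 50.8%, Csf2ra in 46.4% and Csf2rb in 37.6%.

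**Figure D1:**
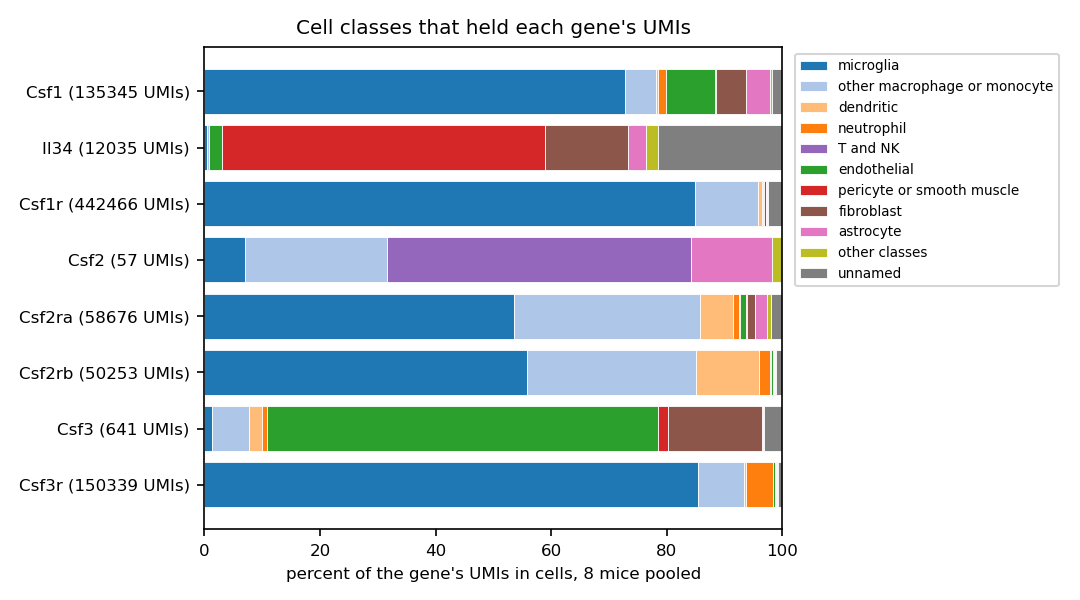
Share of all UMIs of each gene (horizontal axis, percent of the UMIs in all kept cells, 8 mice pooled) that came from each cell class or set of classes (colours), 1 bar per gene. Microglia gave 72.8% of Csf1, 85% of Csf1r and 85.5% of Csf3r UMIs, T and NK cells 52.6% of Csf2 (28.9% without control replicate 4) and endothelial cells 67.7% of Csf3, and pericytes, drawn together with smooth muscle cells, 52.7% of Il34.

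Csf1 lies on chromosome 3 (107648364 to 107667806, minus strand; all positions are GRCm39, GENCODE M39). Its level was highest in neutrophils and microglia. Neutrophils had 428 ± 207 CPM (SD, n = 8 mice, range 179 to 756) and microglia 324 ± 50.6 CPM (260 to 388). The order of these classes held in 5 of 8 mice and their ranges overlapped, so they did not differ beyond their spread. Microglia exceeded endothelial cells (103 ± 26 CPM) in all 8 mice, with separate ranges. Endothelial cells and astrocytes (82.9 CPM) overlapped, and inflammatory macrophages (75.9 CPM) and fibroblasts (68 CPM) followed. Monocytes, dendritic cells, border-associated macrophages, pericytes and lymphocytes lay between 11 and 21.5 CPM, where free RNA would give 1.3 CPM on average. By the same estimate free RNA would give 4.04 CPM of Csf1r, but pericytes, which should lack it, had 13.3 CPM. The part of RNA from other cells in these low Csf1 levels was not tested.

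By number of molecules, microglia, the largest class (17184 of 44072 cells), were the main holder of Csf1. With all 8 mice pooled, they gave 72.8% of its UMIs, endothelial cells 8.53%, fibroblasts 5.25%, inflammatory macrophages 4.89%, astrocytes 4.03% and neutrophils 1.34%. The order below microglia depended on the group. As means over mice, endothelial cells gave 9.79% in control and 7.11% in ancrod mice, and fibroblasts 2.56% and 8.26%. A Csf1 UMI was found in 58.4 ± 4.44% of microglia (median depth 15404.5 UMIs) and in 4.15% of T and NK cells (8608.5 UMIs). When each cell was thinned to 2000 UMIs, the shares were 26.3% and 1.42%. Single microglia held up to 401 Csf1 UMIs.

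Endothelial Csf1 was concentrated in a cluster of 1561 cells led by Il1r1, Ackr1 and Vwf, genes known from venules. This cluster had 157 ± 48.7 CPM and gave 75.5% of the endothelial Csf1 UMIs. A small cluster led by Selp, Ackr1, Adamts9 and Sele, which holds the genes of the selectins that catch leukocytes, had 117 ± 35.1 CPM (n = 7 mice with 10 or more of its cells). The remaining 4726 endothelial cells had 38.4 ± 3.25 CPM. These clusters differed in depth as well, with medians of 28077, 36371 and 7744 UMIs per cell, and the part of depth in the difference was not tested.

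Il34 lies on chromosome 8 (111423928 to 111532584, minus strand), where Vac14 and Mtss2 overlap it on the opposite strand. It was a gene of mural cells, the contractile cells around vessels. Pericytes had 766 ± 112 CPM (600 to 908), smooth muscle cells 147 ± 61.3 CPM and neurons 21.2 ± 9.44 CPM. Each of these steps held in 8 of 8 mice with separate ranges. Fibroblasts (18.1 CPM) could not be placed below neurons, since the order held in 5 of 8 mice. Oligodendrocyte precursor cells had 7.1, astrocytes 5.97 and endothelial cells 2.43 CPM.

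An Il34 UMI was found in 93 ± 4.27% of pericytes at a median depth of 5514 UMIs, and in 0.345% of microglia at 15404.5 UMIs. Thinned to 2000 UMIs, the share of pericytes was still 73.6%, against 0.0813% of microglia. Pericytes gave 52.7% of Il34 UMIs and fibroblasts 14.2%. A further 21.6% (2595 UMIs) came from cells left without a class name. Nearly all of these UMIs lay in 1 cluster (505 cells, 2548 Il34 UMIs, 146 ± 22.8 CPM). It carried both endothelial genes and the pericyte genes Rgs5, Vtn, Abcc9 and Higd1b. Within fibroblasts, a cluster led by Lum and Dcn had 40 ± 14.9 CPM. Only 513 neurons were recovered from these dissociated samples, so their level rests on few cells.

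Csf2 lies on chromosome 11 (54138097 to 54140493, minus strand). Its 57 UMIs came from 25 cells, and T and NK cells held 52.6% of them, at 3.62 CPM. Without control replicate 4, left out after seeing the data, T and NK cells held 11 of 38 UMIs (28.9%), at 1.94 CPM, fewer than the 13 UMIs of 1 inflammatory macrophage. That macrophage gave 22.8% of all 57 UMIs, astrocytes gave 14% and microglia 7.02%. No endothelial cell of 6460 had a Csf2 UMI, which allows up to 0.0464% of cells with a UMI (counting error only) and sets no limit on cells that express the gene below detection. In T and NK cells the CPM were 0, 0, 0 and 15.3 in control replicates 1 to 4 and 0.855, 5.29, 2.84 and 4.62 in ancrod replicates 1 to 4. The highest of these values stood for 19 UMIs in 8 cells of 1 control mouse, and the ancrod mice had 1 or 2 such cells each. Csf2 passed the filter on low counts in no class and was not tested there.

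Csf3, also on chromosome 11 (98592089 to 98594458, plus strand), was an endothelial gene at a low level. Endothelial cells had 4.39 ± 3.44 CPM and gave 67.7% of its UMIs, fibroblasts gave 16.4% and border-associated macrophages 4.52%, with all mice pooled. As means over mice, fibroblasts gave 4.29 ± 3.61% in control and 23.8 ± 17.3% in ancrod mice. Among control mice, border-associated macrophages held Csf3 only in replicate 3, where 1 such cell gave 26.2% of its UMIs. Smooth muscle cells had 4.01 CPM, but this came from 11 UMIs in 1 cell of control replicate 3. The selectin-high cluster described above had 49 cells with Csf3 of 173 (28.3%), up to 39 UMIs in a cell and 35.7 ± 31.7 CPM (12.4 to 104, n = 7), and it gave 60.1% of endothelial Csf3 UMIs. The larger cluster led by Il1r1, Ackr1 and Vwf had 66 such cells of 1561 (4.23%, 3.15 ± 1.56 CPM) and gave 37.8%. The remaining 4726 endothelial cells had 9 cells with Csf3 (0.19%). Most endothelial Csf3 and Csf1 thus lay in the same clusters, but in different parts. The selectin-high cluster gave 60.1% of endothelial Csf3 and 8.55% of endothelial Csf1 UMIs, and the larger cluster gave 37.8% and 75.5%. Of 17184 microglia, 4 (0.0238% on average) had a Csf3 UMI. The depth gap between these clusters given above applies to these shares too.

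**Figure D2:**
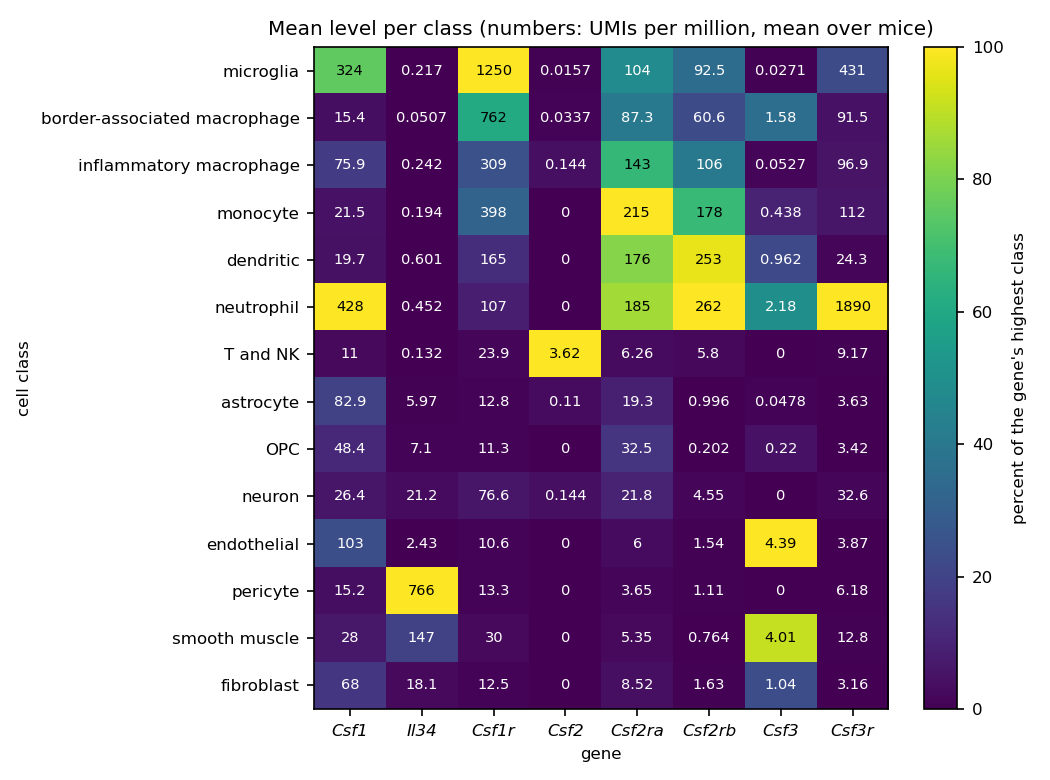
Heat map of the mean level of each gene (columns) in each of 14 cell classes (rows), with the number in each cell giving the CPM averaged over mice and the colour giving it as a percent of the highest class of that gene. Il34 stood out in pericytes (766 CPM), while Csf1r (1250 CPM in microglia), Csf2ra, Csf2rb and Csf3r were highest in myeloid classes.

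Csf1r lies on chromosome 18 (61229714 to 61266535, plus strand). All myeloid classes had Csf1r UMIs. Microglia had 1250 ± 82.9 CPM, border-associated macrophages 762 ± 92.4 and monocytes 398 ± 83.6. Both steps held in 8 of 8 mice with separate ranges. Monocytes and inflammatory macrophages (309 CPM) overlapped, and dendritic cells (165 CPM) and neutrophils (107 CPM) were lower. The 8 microglial markers summed to 646 to 1160 CPM in dendritic cells and 336 to 876 CPM in neutrophils of single mice, against 8470 CPM in microglia, and the part of microglial RNA in these low Csf1r levels was not tested. Microglia gave 85% of Csf1r UMIs, inflammatory macrophages 6.05% and border-associated macrophages 2.92%.

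A Csf1r UMI was present in 99.4% of microglia, 97% of monocytes and 89.6% of border-associated macrophages. Pericytes, which should lack it, had a UMI in 6.76% of cells at a median depth of 5514, and free RNA would give 4.04 CPM of Csf1r on average. At 2000 UMIs per cell the shares were 90.6% of microglia, 55.1% of monocytes, 70.2% of border-associated macrophages and 2.22% of pericytes. Neurons read 76.6 CPM, but without a cluster of 73 cells that also carried microglial genes they had 12.7 ± 14.8 CPM. That cluster had 906 ± 205 CPM in the 2 mice with 10 or more of its cells, and leaving it out was decided after seeing the data.

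The GM-CSF receptor chains were highest in blood-derived classes. Csf2ra (chromosome 19, 61212395 to 61216892, minus strand) had 215 ± 24.3 CPM in monocytes, 185 ± 63.5 in neutrophils and 176 ± 28.4 in dendritic cells. The order of neutrophils and dendritic cells held in only 2 of 8 mice, so these classes did not differ beyond their spread. Inflammatory macrophages (143 CPM) lay below dendritic cells in 8 of 8 mice with overlapping ranges, and above microglia (104 CPM) in 8 of 8 mice with separate ranges. Border-associated macrophages had 87.3 CPM.

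Csf2rb (chromosome 15, 78209952 to 78238047, plus strand) had 262 ± 54.8 CPM in neutrophils, 253 ± 72.2 in dendritic cells and 178 ± 34.4 in monocytes. Neutrophils and dendritic cells overlapped, with neutrophils higher in 5 of 8 mice. Monocytes exceeded inflammatory macrophages (106 CPM) in 8 of 8 mice with separate ranges, and microglia (92.5 CPM) and border-associated macrophages (60.6 CPM) followed. The neighbouring gene Csf2rb2 (chromosome 15, 78166707 to 78189921, minus strand) codes for a mouse paralog of the beta chain. Of the 4870 words of 31 bases in the longest Csf2rb transcript, 28% occur in Csf2rb2, but only 1.5% of the last 400, where a 3′ assay mostly reads. Intronic reads were counted as well, so a small exchange of reads between the paralogs cannot be measured here.

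Because a GM-CSF receptor needs both chains, cells with a UMI of each were counted. Such cells were 78 ± 3.67% of inflammatory macrophages, 77.2% of dendritic cells, 73.7% of monocytes, 46.9% of microglia, 41.3% of border-associated macrophages and 39.6% of neutrophils. No pericyte held both. These shares depend on depth. A Csf2ra UMI was found in 91.9% of monocytes but in 32.9% once cells were thinned, and a Csf2rb UMI in 85.3% and 35.4% of dendritic cells. Pericytes had Csf2ra in 2.45% and Csf2rb in 0.705% of cells. By number of molecules microglia still held most of both chains, with 53.7% of Csf2ra and 55.8% of Csf2rb UMIs, ahead of inflammatory macrophages with 21.1% and 18.5%.

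Csf3r lies on chromosome 4 (125918262 to 125938236, plus strand). Neutrophils, the classical target of G-CSF, had 1890 ± 407 CPM and microglia 431 ± 45.1. Monocytes (112 ± 47.5 CPM), inflammatory macrophages (96.9 CPM) and border-associated macrophages (91.5 CPM) had less. The first steps, from neutrophils to microglia and from microglia to monocytes, held in 8 of 8 mice with separate ranges, while monocytes and inflammatory macrophages overlapped. Since neutrophils were few (684 cells), they gave 4.63% of Csf3r UMIs and microglia 85.5%. A Csf3r UMI was found in 98.3% of neutrophils, 97.1% of microglia and 1.98% of pericytes, or 88.4%, 56.9% and 0.746% after thinning.

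Ligand and receptor often met in the same cell for Csf1. A UMI of both Csf1 and Csf1r was found in 58.1 ± 4.27% of microglia and 34.6 ± 5.86% of inflammatory macrophages. It was found in 20.2% of neutrophils, 15.2% of fibroblasts, 11.5% of border-associated macrophages, 10.1% of monocytes and 0.515% of pericytes. Since 99.4% of microglia had a Csf1r UMI, their share was close to that of Csf1 alone (58.4%). Median depth was 15404.5 UMIs per cell in microglia, 42218 in fibroblasts and 5514 in pericytes, and its part in these shares was not tested. Csf1r and Csf3r were found together in 96.6 ± 0.62% of microglia. Il34 and Csf1r had no class in common among their leading ones, as Il34 was high in mural cells and Csf1r in myeloid cells.

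The microglia fell into states that differed in these genes. They are described by mean CPM without a test, since the clusters were built on the same cells. Homeostatic microglia (5128 cells) had P2ry12 at 1070 and Spp1 at 212 CPM, injury-responsive microglia (2126 cells) had 227 and 17500 CPM, and dividing microglia (488 cells) had 247 and 22000 CPM. Csf1 was 222 ± 34.4 CPM in homeostatic and 550 ± 71.8 CPM in injury-responsive microglia. The second was higher in each of 8 mice, by 2.54 ± 0.506 times on average (1.72 to 3.29). Dividing microglia had 452 ± 126 CPM, and intermediate and interferon-responsive microglia had 266 and 260 CPM.

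The receptors for CSF1 and G-CSF ran the other way. Csf1r was 1480 ± 71.3 CPM in homeostatic, 850 ± 82.8 in injury-responsive and 758 ± 48.2 in dividing microglia. Csf3r was 669 ± 45.8, 210 ± 25.9 and 173 ± 27.8 CPM in the same states, 0.313 and 0.258 times the homeostatic level. Both receptors were lower in the injury-responsive state in 8 of 8 mice. Csf2ra was higher there in 8 of 8 mice, with 136 ± 16.2 against 78.3 ± 10.8 CPM, and Csf2rb was higher in 6 of 8 (101 ± 13.6 against 81.2 CPM). The states also differed in depth, with median UMIs per cell of 11636 in homeostatic, 27757 in injury-responsive and 37671.5 in dividing microglia, and the part of depth in these differences was not tested.

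**Figure D3:**
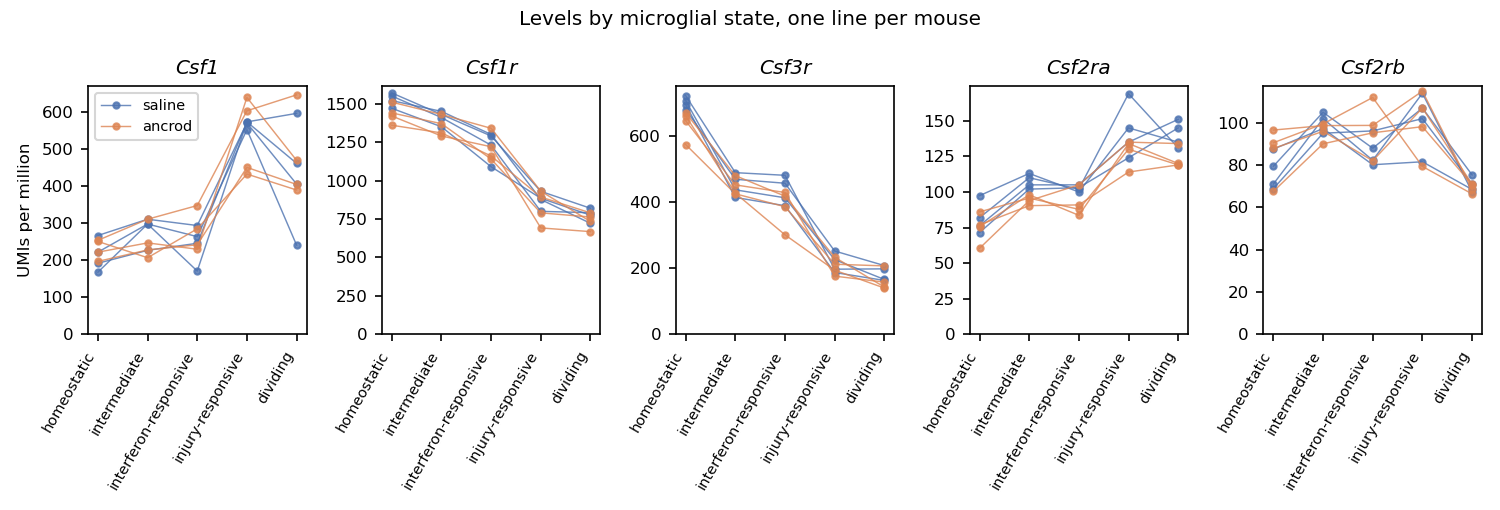
Level of Csf1, Csf1r, Csf3r, Csf2ra and Csf2rb (vertical axes from 0, CPM) in 5 microglial states (horizontal axes), with points for single mice joined by 1 line per mouse and coloured by group. Mean Csf1 was 222 CPM in the homeostatic and 550 CPM in the injury-responsive state, while mean Csf1r was 1480 and 850 CPM and mean Csf3r 669 and 210 CPM.

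Inflammatory macrophages showed a split by division. The 346 dividing cells had 27.7 ± 14.4 CPM of Csf1 and the 2423 others 85.5 ± 24.1, lower in all 8 mice. Csf3r was also lower in dividing cells in all 8 mice (38.3 ± 14.1 against 108 ± 10.8 CPM). Csf1r (275 against 315), Csf2ra (141 against 144) and Csf2rb (110 against 105) differed less. Thus dividing macrophages had less Csf1 than the other macrophages. The dividing cells were 1 cluster with 0 class markers among its leading genes, and dendritic cells (19.7 CPM of Csf1) were the next class by markers. Its median depth was 40233 UMIs per cell against 27824 in the others. The parts of depth and of cell identity in this difference were not tested. Dividing microglia (452 CPM) had more than homeostatic ones (222 CPM). Their mean was below that of injury-responsive microglia (550 CPM), the state closest to them in P2ry12 and Spp1, with overlapping ranges (241 to 647 and 433 to 640 CPM).

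Genes whose level over the 14 classes most resembled that of each member were named by Pearson's r of log2(CPM + 1), as a description only, since all classes share the same libraries. Csf1r was most like P2ry6, Tlr7, Cd180, Adgre1 and Tlr1 (r from 0.969 to 0.990 over 14 classes). Among the genes most like Il34 were Pcdh18, Cys1, Gucy1a1 and Gucy1b1 (0.967 to 0.982). Csf2rb was most like its paralog Csf2rb2, then Wdfy4, Ptafr, Themis2 and Alox5ap (0.976 to 0.986). Csf2ra was most like Rab32, Skap2, Csf2rb2, Clec7a and Clec5a (0.924 to 0.947), and Csf3r was most like C5ar2, Trpm2, Rffl, Cd33 and P2ry13 (0.940 to 0.966). Csf1 had no close match, with Olfm4, Myl2, Kcnj2, Cpd and Med7 at 0.740 to 0.788.

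The comparison of ancrod with saline asked whether depletion of fibrinogen changed these genes in any cell class. No member passed the test in any class. The UMIs of a class were summed for each mouse, edgeR (quasi-likelihood test) was fitted to all genes of the class, and p-values were adjusted over them by Benjamini-Hochberg, with a threshold of 0.05. Of 59 tests of a member in a class (14 classes), 0 passed, against 15 of 133934 tests over all genes (0.0112%), and DESeq2 also called 0 (0.19% of all tests). At an unadjusted p under 0.05 there were 10 of 59 with edgeR, 5 higher and 5 lower (6.12% of all tests), and 10 with DESeq2 (4.84%). Log2 fold changes ran from -1.14 to 1.33 with a median of -0.10, beside -0.00 over all genes, and the lowest adjusted p was 0.342 by edgeR. The groups did not overlap in 2 of 59 (3.43% of all tests), Il34 in smooth muscle cells and Csf2ra in microglia. A class sum joins the clusters of the class, so both their shares and the levels within them enter it.

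**Figure D4:**
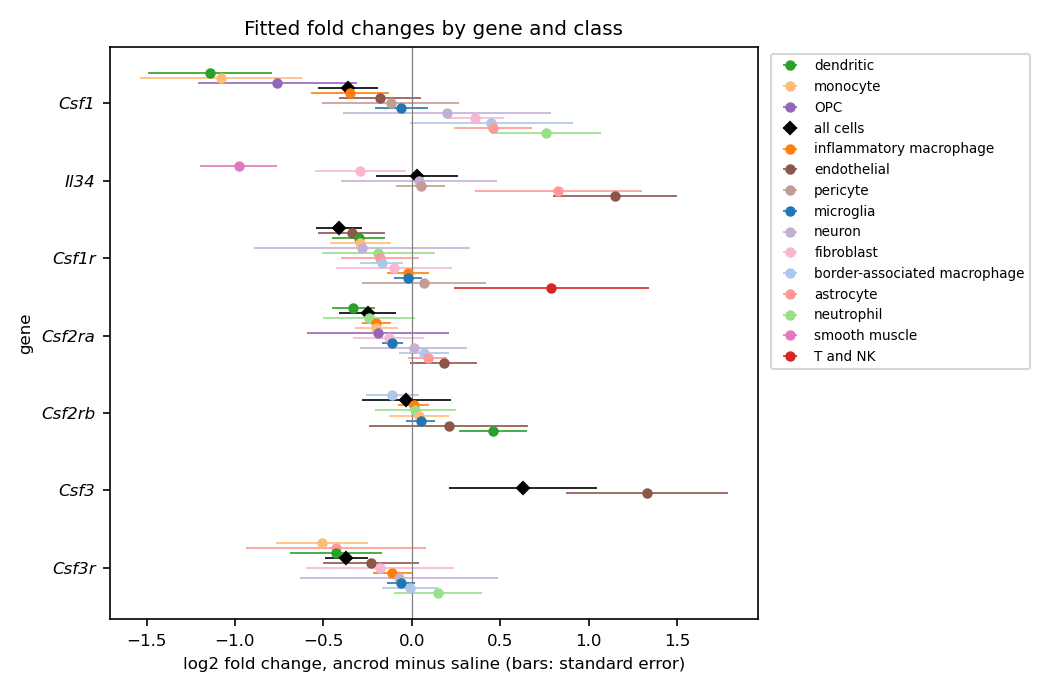
Log2 fold change of ancrod over saline (horizontal axis) for each gene (vertical axis) in each class tested with edgeR (coloured points) and over all cells (black diamonds), with bars for the standard error. The 59 class values lay between -1.14 and 1.33, and 0 passed an adjusted p of 0.05.

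For Csf1, neutrophils had 179, 442, 342 and 250 CPM in control replicates 1 to 4 and 392, 715, 345 and 756 in ancrod replicates 1 to 4. The groups overlapped, with the highest values in ancrod mice. The log2 fold change was 0.76 ± 0.31 (SE; edgeR, adjusted p = 0.971), resting on as few as 10 neutrophils in control replicate 1. Within batch 1 it was 0.55 ± 0.37, and in batch 2 the single ancrod mouse had 756 CPM against 250. Microglia had 281, 319, 388 and 350 CPM in control and 266, 260, 342 and 383 in ancrod mice. The groups overlapped almost fully (log2 fold change -0.06 ± 0.15, edgeR, adjusted p = 0.977). Endothelial cells had 59.8, 115, 116 and 148 CPM against 111, 83, 93.7 and 99.8, and all ancrod values lay inside the control range (-0.18 ± 0.23, edgeR, adjusted p = 0.784). The make-up of this class moved with the group. The cluster led by Il1r1, Ackr1 and Vwf held most endothelial Csf1. It had 169, 216, 278 and 229 cells in control and 139, 193, 148 and 189 in ancrod mice. The clusters outside the Ackr1 clusters had 969, 697, 895 and 736 cells against 195, 406, 328 and 500. Within the Il1r1, Ackr1 and Vwf cluster, Csf1 was 95.6, 172, 188 and 252 CPM in control and 145, 113, 137 and 153 in ancrod mice, again with all ancrod values inside the control range. The other classes with an unadjusted p under 0.05 were fibroblasts with 0.36 ± 0.16 (edgeR, adjusted p = 0.342), dendritic cells with -1.14 ± 0.35 (edgeR, adjusted p = 0.799) and monocytes with -1.08 ± 0.46 (edgeR, adjusted p = 0.852). Within batch 1 they were, in this order, 0.23, -1.13 and -1.33, and the single pair of batch 2 gave log2 ratios of 0.66, -0.95 and 0.07. Leaving out 1 mouse gave -1.76 to -0.78 in monocytes. In the dendritic cells the summed level of 8 microglial markers was 804 to 1160 CPM in control and 646 to 916 CPM in ancrod mice, with 6 of 8 markers lower and none at 0, and its part in the Csf1 value was not tested.

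For Il34, pericytes had 788, 805, 820 and 648 CPM in control and 908, 882, 676 and 600 in ancrod mice. The ancrod values lay on both sides of the control values. The log2 fold change was 0.05 ± 0.14 (edgeR, adjusted p = 0.943), with a 95% interval of -0.22 to 0.32. Smooth muscle cells had 210, 171, 184 and 231 CPM in control and 68.3, 116, 130 and 69.9 in ancrod mice, so every ancrod mouse lay below every control mouse. This was a log2 fold change of -0.98 ± 0.22, with an unadjusted p of 0.000598 that did not pass over all genes (edgeR, adjusted p = 0.918). It was -0.79 ± 0.24 within batch 1 and -1.72 in the single pair of batch 2. The values stood for 48 to 94 UMIs per control mouse and 20 to 63 per ancrod mouse. Pericyte markers in these smooth muscle cells summed to 2740 to 5410 CPM in control and 1730 to 4960 in ancrod mice (5 of 6 markers lower, none at 0), and their part in the Il34 value was not tested. Neurons had 5.01, 21.9, 36.9 and 22.1 CPM against 14.7, 29.3, 20.8 and 18.6 (0.04 ± 0.44, edgeR, adjusted p = 0.987). In endothelial cells, where Il34 was low, it was 1.5 ± 0.542 in control and 3.35 ± 1.38 in ancrod mice (1.15 ± 0.35, edgeR, adjusted p = 0.488), while the summed pericyte markers there were 263 to 437 and 332 to 475 CPM, with 6 of 6 markers at a higher mean in ancrod mice and none at 0. Their part in the endothelial Il34 value was not tested.

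For Csf3, endothelial cells, the only class in which it passed the filter, had 1.66, 3.97, 2.27 and 1.75 CPM in control and 6.41, 2.36, 11.8 and 4.92 in ancrod mice. Of the ancrod mice, 3 exceeded every control mouse and 1 lay among them. The log2 fold change was 1.33 ± 0.46, the highest of all members, and it did not pass (edgeR, adjusted p = 0.491). Within batch 1 it was 1.33 ± 0.56. The selectin-high cluster that held most endothelial Csf3 had 11, 33, 14 and 18 cells in control and 18, 5, 24 and 50 in ancrod mice, overlapping. The endothelial clusters with little Csf3 had 969, 697, 895 and 736 cells against 195, 406, 328 and 500. These did not overlap, so the make-up of the class moved with the group there. The part of this make-up in the class value was not tested. Within the selectin-high cluster, Csf3 was 31.6, 30, 40.1 and 12.4 CPM in control replicates 1 to 4 and 19.8, 104 and 12.5 in ancrod replicates 1, 3 and 4. Those ranges overlapped. In fibroblasts, Csf3 had 0.135, 0.285, 0.652 and 0.275 CPM in control and 2.91, 3.07, 0.908 and 0.123 in ancrod mice. The ancrod mice held both the highest and the lowest of these values, and the gene was too sparse there to be tested.

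**Figure D5:**
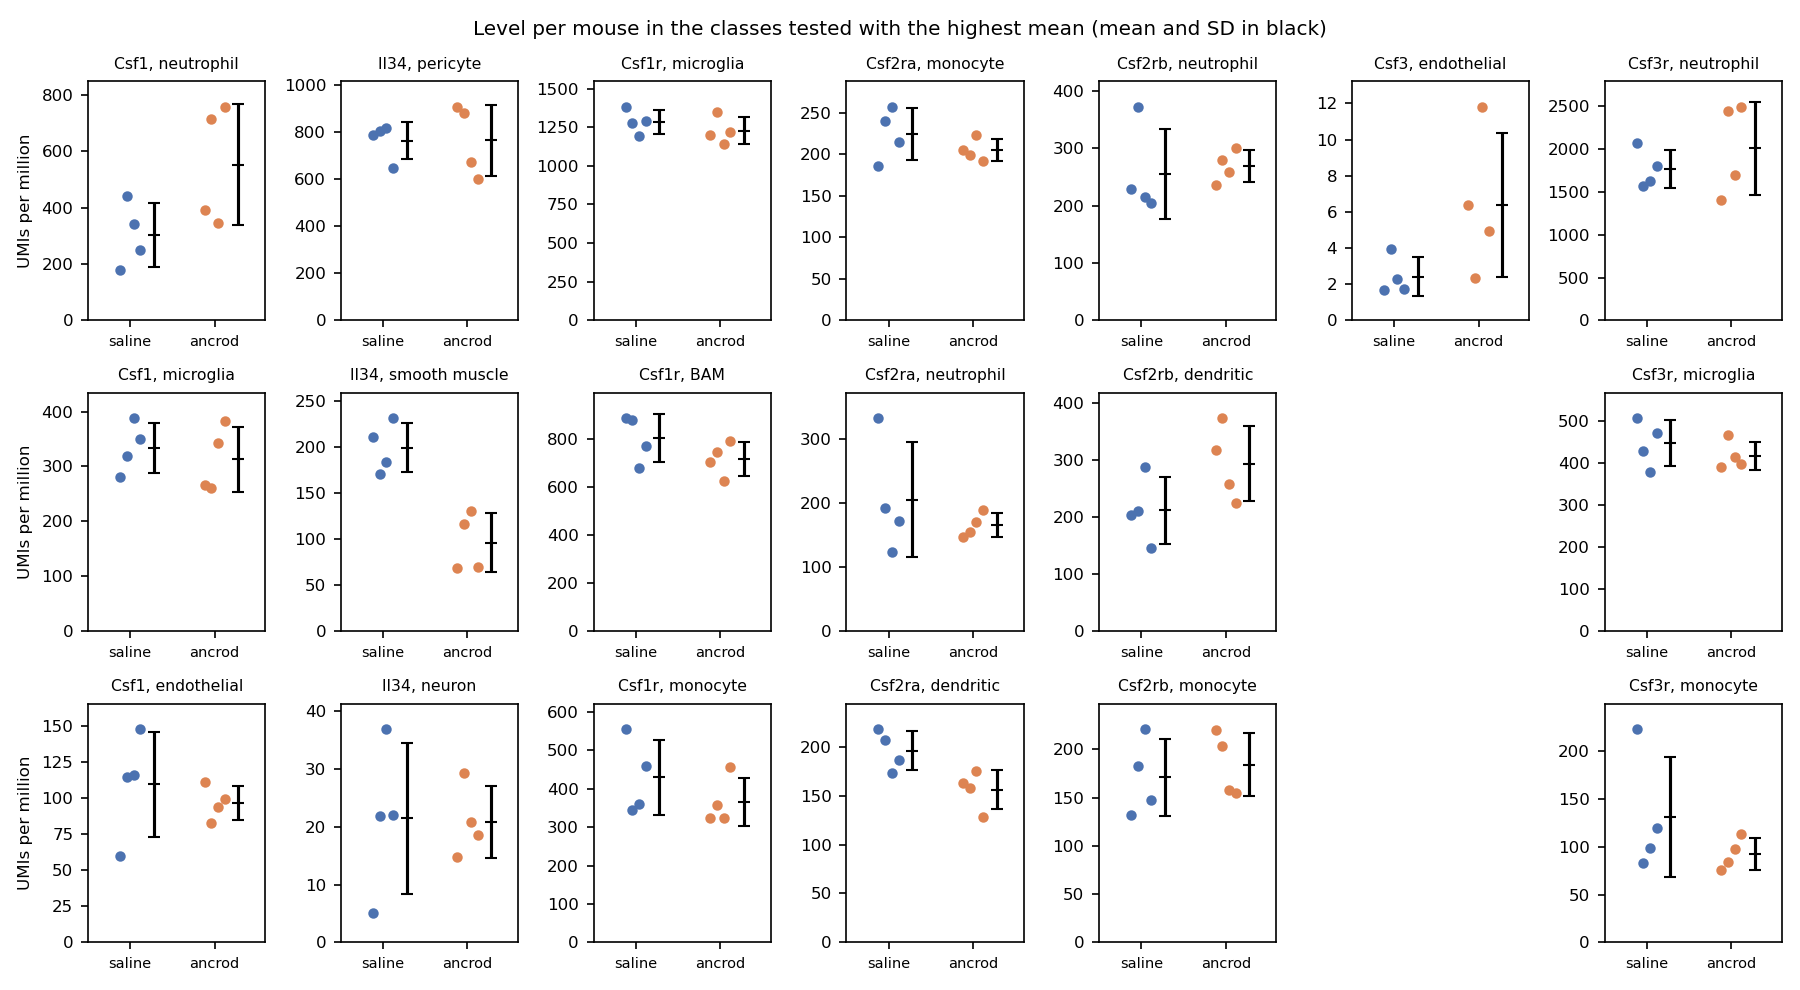
Level in each mouse (points; vertical axes from 0, CPM) of each gene in up to 3 classes where it was highest among those tested, with saline and ancrod mice side by side and black bars for the group mean and SD. BAM stands for border-associated macrophages, and among these panels only Il34 in smooth muscle cells had groups that did not overlap.

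For Csf1r, microglia had 1380, 1280, 1190 and 1290 CPM in control and 1200, 1350, 1140 and 1220 in ancrod mice. The groups overlapped, and the log2 fold change was -0.02 ± 0.08 (edgeR, adjusted p = 0.987). Border-associated macrophages had 889, 882, 679 and 772 CPM against 705, 749, 628 and 792 (-0.17 ± 0.12, edgeR, adjusted p = 0.89). Monocytes had 555, 345, 360 and 460 CPM against 323, 358, 324 and 456 (-0.29 ± 0.17, edgeR, adjusted p = 0.874). Both overlapped, with the highest values in control mice. The monocytes of control replicate 1, at 555 CPM, also had the highest summed microglial markers (1610 CPM, against 616 to 1140 in the other mice). Over the groups these sums were 631 to 1610 CPM in control and 616 to 1140 in ancrod mice, with 6 of 8 markers lower and none at 0, and their part in the Csf1r and Csf1 values of monocytes was not tested. Over its 12 classes Csf1r ranged from -0.34 to 0.79 on the log2 scale, 2 higher and 10 lower (50.1% of the tests over all genes were lower). In batch 1 alone 4 were higher and 8 lower. Of the 12, 0 had an unadjusted p under 0.05 (6.12% over all genes). The ends of the range were endothelial cells (10.6 CPM) and T and NK cells (23.9 CPM). Csf1r was low in both, as in pericytes (13.3), astrocytes (12.8) and fibroblasts (12.5 CPM). Leaving out 1 mouse gave -0.24 to 1.09 for T and NK cells.

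For Csf2ra, monocytes had 186, 240, 257 and 215 CPM in control and 205, 199, 223 and 192 in ancrod mice (-0.20 ± 0.12, edgeR, adjusted p = 0.875). Neutrophils had 332, 192, 124 and 172 against 147, 154, 170 and 189 (-0.24 ± 0.26, edgeR, adjusted p = 0.971), where control replicate 1, with 10 neutrophils, was highest. Dendritic cells had 218, 207, 173 and 186 against 163, 158, 175 and 128 (-0.33 ± 0.12, edgeR, adjusted p = 0.832). The groups overlapped in all of these classes, in dendritic cells only by 1 ancrod mouse. Inflammatory macrophages, the other class with an unadjusted p under 0.05, had 152 ± 7.19 CPM in control and 135 ± 11.6 in ancrod mice, overlapping (-0.20 ± 0.08, edgeR, adjusted p = 0.999). In microglia the groups did not overlap, but the log2 fold change was only -0.11 ± 0.06 (edgeR, adjusted p = 0.953).

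For Csf2rb, neutrophils had 230, 372, 216 and 205 CPM in control and 237, 279, 259 and 301 in ancrod mice (0.02 ± 0.23, edgeR, adjusted p = 0.996). Dendritic cells had 204, 210, 287 and 145 against 318, 373, 257 and 225 (0.46 ± 0.19, edgeR, adjusted p = 0.903). Monocytes had 132, 183, 221 and 148 against 220, 204, 158 and 155 (0.04 ± 0.17, edgeR, adjusted p = 0.985). The groups overlapped in each, and in dendritic cells 2 ancrod mice exceeded every control mouse. In dendritic cells the beta chain was thus at a higher mean and the alpha chain at a lower mean in ancrod mice, with neither passing the test.

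For Csf3r, neutrophils had 2070, 1570, 1630 and 1800 CPM in control and 1400, 2440, 1700 and 2490 in ancrod mice. The ancrod values lay on both sides of the controls (0.15 ± 0.25, edgeR, adjusted p = 0.98). Microglia had 506, 429, 379 and 471 against 390, 465, 413 and 397, again overlapping (-0.06 ± 0.08, edgeR, adjusted p = 0.965). Monocytes had 223, 82.6, 98.7 and 120 against 75.6, 83.6, 97.2 and 113, with 1 control mouse far above the rest (-0.51 ± 0.26, edgeR, adjusted p = 0.852). That was control replicate 1, whose monocytes had the most microglial markers, and their part in the value was not tested.

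Summed over all cells of a mouse, where shifts in cell make-up enter, Csf1r and Csf3r had lower means in ancrod mice without passing the test. Csf1r had 568, 663, 653 and 617 CPM in control and 560, 503, 447 and 427 in ancrod mice, with every ancrod mouse below every control mouse. Csf3r had 201, 218, 207 and 218 against 186, 188, 159 and 135, also without overlap. Their log2 fold changes were -0.41 ± 0.13 (edgeR, adjusted p = 0.212) and -0.37 ± 0.12 (edgeR, adjusted p = 0.214), and -0.36 ± 0.15 and -0.27 within batch 1. Of 7 members tested over all cells, 0 passed with edgeR, where 0 of 16157 genes (0%) passed, and DESeq2 called 0 members (5.12% of all genes). At an unadjusted p under 0.05 there were 2 of 7 members with edgeR (17.3% of all genes) and 2 with DESeq2 (20.3%), and 2 of 7 did not overlap (8.55%). Microglia, the main holders of both receptors, were 40.4 to 44.2% of cells in control and 27.7 to 43% in ancrod mice. Endothelial cells were 17.8 to 21% and 6.25 to 15.2% and inflammatory macrophages 4.03 to 5.8% and 7.38 to 9.07%, both without overlap, and the part of this make-up in the values over all cells was not tested. Within microglia the same receptors differed by -0.02 and -0.06 on the log2 scale. Homeostatic microglia, which had the highest Csf1r and Csf3r of the states, were 47, 34.3, 29.1 and 32.4% of microglia in control replicates 1 to 4 and 14.5, 22.2, 31.5 and 26% in ancrod replicates 1 to 4. The groups overlapped in this share through 1 ancrod mouse, and its part in the receptor values was not tested.

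The other members were smaller or less certain over all cells. Csf1 had -0.36 ± 0.17 (edgeR, adjusted p = 0.325), Csf2ra -0.25 ± 0.16 (edgeR, adjusted p = 0.445), Csf2rb -0.03 ± 0.25 (edgeR, adjusted p = 0.959) and Il34 0.03 ± 0.23 (edgeR, adjusted p = 0.962). Csf3 was 0.314, 0.884, 0.815 and 0.337 CPM in control and 1.02, 0.627, 1.37 and 0.775 in ancrod mice, overlapping, with 0.63 ± 0.42 (edgeR, adjusted p = 0.456). The share of UMIs held by a class is given for some large holders, beside their share of cells. Microglia gave 87.5 ± 1.51% of Csf1r UMIs in control and 82.2 ± 2.3% in ancrod mice, and inflammatory macrophages 4.51 ± 0.488% and 7.83 ± 1.48%, where they made up 4.03 to 5.8% and 7.38 to 9.07% of cells. Fibroblasts gave 2.56 ± 1.67% of Csf1 UMIs in control and 8.26 ± 3.46% in ancrod mice, where they made up 0.537 to 4.5% and 2.11 to 10.8% of cells. All these shares are of dissociated cells and may differ from those in tissue. The paper proposes that less fibrosis under ancrod made cells of the injury site easier to dissociate, which was not tested here.

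Cells with any Csf3 UMI had a higher mean share in ancrod mice at full depth, and too few remained at equal depth to show whether the difference was kept. They were 0.164, 0.47, 0.47 and 0.283% of cells in control replicates 1 to 4 and 0.728, 0.48, 0.579 and 0.492% in ancrod replicates 1 to 4. All ancrod mice lay above all control mice, by 0.223 percentage points between the means (two-sided exact permutation test, p = 0.0286, the smallest that 70 arrangements can give, and 0.0571 when adjusted over the shares of Csf2 and Csf3). Endothelial cells with a Csf3 UMI were 7, 19, 19 and 9 in control and 22, 13, 16 and 19 in ancrod mice. Fibroblasts with one were 1, 2, 1 and 3 against 12, 9, 13 and 3. Endothelial cells made up 17.8 to 21% and 6.25 to 15.2% of cells, and fibroblasts 0.537 to 4.5% and 2.11 to 10.8%. The part of cell make-up in the share was not tested. Cells of ancrod mice were also read more deeply, with median UMIs of 13609.5 to 17500 per cell against 10479 to 14111.5. When every cell was thinned to 2000 UMIs, 18 control and 12 ancrod cells kept a Csf3 UMI and the direction turned, with a difference of -0.0272 percentage points (exact permutation test, p = 0.486). Leaving out 1 mouse gave differences of 0.162 to 0.264 percentage points, and the exact permutation p stayed at 0.0286 only without control replicate 2 or 3. It was 0.0857 without control replicate 1, 0.0571 without control replicate 4, and 0.143, 0.0857, 0.143 and 0.114 without ancrod replicates 1 to 4.

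Cells with a Csf2 UMI were 0.0183, 0.0188, 0.0168 and 0.151% in control and 0.071, 0.071, 0.0511 and 0.0616% in ancrod mice. Control replicates 1 to 3 lay below and control replicate 4 above all ancrod mice, so the groups overlapped (exact permutation test, p = 0.83). These shares stood for 1, 1, 1 and 8 cells against 4, 4, 3 and 3. Without control replicate 4 the difference was 0.0457 percentage points (exact permutation test, p = 0.0286, the smallest that design allows), and that value rests on 3 control cells.

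Genes that act with these factors were read in the same fits, as lists of related genes. Of 15 genes of the CSF1 receptor arm, from the transcription factor Spi1 to the signalling adaptor Tyrobp, 0 of 177 class tests passed, 15 (8.47%) had an unadjusted p under 0.05 (7 higher, 8 lower), beside 6.12% of all class tests, and the median log2 fold change was -0.02, beside -0.00 over all genes. Of 18 genes of the common beta chain and G-CSF arm, 15 were tested, since Il3, Il5 and Il5ra were too sparse. There 0 of 167 passed, 12 (7.19%) had an unadjusted p under 0.05 (9 higher, 3 lower) and the median was 0.02. Of 10 known inducers of the ligands, 9 were tested without Il17a, and 0 of 88 passed, 9 (10.2%) had an unadjusted p under 0.05 (7 higher, 2 lower) and the median was 0.13. Over all cells 0 genes of any list passed, and 4 of 15, 2 of 15 and 0 of 9 had an unadjusted p under 0.05, beside 17.3% of all genes.

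The list genes with the lowest p-values are given by value. In pericytes, Socs3, which codes for an inhibitor of cytokine receptor signalling, had 1.04 ± 0.29 on the log2 scale (edgeR, adjusted p = 0.199), Runx1, a transcription factor, 0.86 ± 0.24 (edgeR, adjusted p = 0.233) and Cebpb, a factor of the acute phase response, 0.83 ± 0.24 (edgeR, adjusted p = 0.241). In fibroblasts, Tnf, the gene of a proinflammatory cytokine, had 0.92 ± 0.23 (edgeR, adjusted p = 0.23), Nfkb1 0.66 ± 0.21 (edgeR, adjusted p = 0.261) and Stat5b -0.44 ± 0.11 (edgeR, adjusted p = 0.23). Stat5a, which codes for a signal transducer below the GM-CSF receptor, had 9.4 ± 1.29 CPM in control and 17.9 ± 2.94 CPM in ancrod border-associated macrophages (0.95 ± 0.20, edgeR, adjusted p = 0.293). In dendritic cells, Cebpa had -0.50 ± 0.16 and Ptpn6 -0.37 ± 0.12 (edgeR, adjusted p = 0.832 for both). None passed the test, and 15 of 9046 genes (0.166%) passed in pericytes. In the alternative fit with replicate number as a block, Socs3, Runx1 and Cebpb did pass in pericytes, where 67 of 9046 genes passed.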

How the data were processed

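The UMI counts were deposited as 1 unfiltered matrix per mouse. The authors made them from 10x 3′ v3.1 libraries with Cell Ranger 7.1.0, which runs STAR (submitters' processing notes), on GRCm39, counting exonic and intronic reads. Droplets with at least 2000 UMIs and under 20% mitochondrial UMIs were kept, simulated doublets were used to score and remove doublets, and cells were clustered (3000 variable genes without the 8 members, 30 components, 20 neighbours, Leiden resolution 2; Python 3.11.15, scikit-learn 1.9.0, leidenalg 0.10.2). Clusters were named from marker lists, and 4431 cells stayed unnamed. Of 111 markers, 110 were higher in their own class, which is no independent check, since the same markers gave the names. The naming rules were set after the clusters were seen. The members and gene lists were chosen with earlier results of these data known. UMIs were summed per mouse and class (10 or more cells, 3 or more mice per group) and fitted with edgeR 4.0.16 (TMM, filterByExpr, quasi-likelihood test, Benjamini-Hochberg adjustment over all genes of a class; R 4.3.3); DESeq2 1.42.0 was an alternative. Scripts were tested on simulated counts. Values per mouse are given for each member in the 3 classes where it was highest among those tested, and list genes by lowest p. Shares of cells were compared by exact permutation of mice. Binomial limits cover counting error only. The methods and labels differ on the strain and sex of the mice, and the labels were followed. A gene among those most like Il34 is not reported here.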

Additional observations from a re-analysis of the deposited data

Results flagged for a closer look

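In 3 of 56 groups of 4 mice, 1 mouse stood far from the other mice of its group by the gap between it and its nearest neighbour. Chance gives about 1 in 20 groups, or 2.8 of 56. Csf2rb in neutrophils was 372 CPM in control replicate 2 and 205, 216 and 230 CPM in the other control mice. Il34 over all cells was 22.2 CPM in ancrod replicate 2 and 12.7, 12.9 and 14.3 CPM in the other ancrod mice. The share of cells with a Csf2 UMI was 0.151% in control replicate 4, the control mouse of batch 2, and 0.0168, 0.0183 and 0.0188% in the other control mice.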

How the results depend on the processing

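No member passed the threshold in any class or over all cells under any alternative tried. The share of cells with Csf3 reversed with cells thinned to 2000 UMIs (-0.0272 percentage points). Its exact permutation p was above 0.05 with doublets kept (difference 0.239 percentage points, p = 0.0571), in batch 1 alone (difference 0.227, p = 0.1, the smallest that 3 against 3 allows) and with permutation inside replicate numbers, the replicate block (difference 0.223, p = 0.125, the smallest possible). The share with Csf2 reversed after thinning (-0.00582). Leaving out 1 mouse gave 0.162 to 0.264 for Csf3, with an exact permutation p of 0.0286 to 0.143, and 0.00109 to 0.0457 for Csf2. In the classes whose mice are given one by one and over all cells, these log2 fold changes turned sign. They were Il34 in neurons (-0.03) and over all cells (-0.06) with doublets kept, Csf2rb in neutrophils with DESeq2 (-0.01), in batch 1 (-0.07), with doublets kept (-0.03) and at 4000 UMIs or more (-0.04), Csf2rb in monocytes at resolution 1 (-0.00), and Csf2rb over all cells in batch 1 (0.06). In batch 1 alone, 7 of all 59 class values turned sign, 6 of them in other classes (Csf1 in border-associated macrophages -0.05, Csf1r in neurons 0.31 and astrocytes 0.07, Csf2rb in inflammatory macrophages -0.02, Csf3r in neurons 0.24 and fibroblasts 0.03). In the classes given by mouse and over all cells, leaving out 1 mouse gave these ranges over 0. They were Csf1 (-0.17 to 0.04) and Csf1r (-0.06 to 0.01) in microglia, Csf2rb over all cells (-0.18 to 0.18), in monocytes (-0.06 to 0.19) and in neutrophils (-0.06 to 0.23), and Il34 over all cells (-0.17 to 0.21), in neurons (-0.26 to 0.30) and in pericytes (-0.05 to 0.16). The cause was not tested. Csf3 was highest in smooth muscle cells, through 1 cell, without control replicate 2 or ancrod replicate 1, 3 or 4, and Csf2rb in dendritic cells without control replicate 2. Over all cells, same-numbered mice deviated with correlations of -0.469, -0.278, -0.025 and 0.125 for replicates 1 to 4. Within classes the highest value was 0.366 (replicate 1, neurons). The replicate 4 mice, both of batch 2, ran from -0.055 (astrocytes) to 0.196 (inflammatory macrophages). Replicates 1 to 3 thus showed no steady pairing by number, while those numbered 4 shared a batch. With the replicate block, Cebpb (edgeR, adjusted p = 0.0207), Socs3 (0.000791) and Runx1 (0.0163) passed in pericytes, and 0 members did. Batch 1 alone for the shares and neurons without the mixed cluster were chosen after seeing the data.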

Other observations

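Cells left without a class name were 10.1 ± 2.77% of cells in control and 9.83 ± 2.4% in ancrod mice (SD, n = 4 each), and they too held these genes. The largest such cluster (1738 cells, led by Gng10, Ltc4s, Cryba4 and Crybb1) had 1190 ± 133 CPM of Csf1r and 22.9 ± 4.28 CPM of Csf1, whereas named microglia had 1250 and 324 CPM. Its median depth was 2742 UMIs per cell against 15404.5 in microglia, and the part of depth in the Csf1 difference was not tested. A cluster of 86 cells led by Ly6d, Grm8, Mctp2 and Ccr9 had 8.27 ± 7.81 CPM of Csf1r and 24.1 ± 20.9 CPM of Il34 in the 4 mice with 10 or more of its cells. A cluster of 586 cells led by Gkn3, Vegfc, Stmn2 and Sema3g had 36.2 ± 13.4 CPM of Csf1, close to the endothelial clusters outside the Ackr1 clusters.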
